A study of Mus musculus with 12 samples.

Results

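The Notch pathway of brain endothelium was followed through 10 genes fixed by name: the ligand genes Dll4, Jag1 and Jag2, the receptor genes Notch1 and Notch4, the DNA-binding partner gene Rbpj, and the target genes Hes1, Hey1, Hey2 and Nrarp. All 10 were found by symbol among the 21638 genes of the deposited table, and all 10 were among the 12577 genes that passed the filter on low counts, a mean of at least 10 counts over the libraries.

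Notch receptors are surface proteins that are cut when a ligand on a neighbouring cell pulls on them. The released intracellular part enters the nucleus, joins RBPJ on DNA and switches on target genes, among them genes for repressors of the HES and HEY families. In blood vessels the pathway is known for holding back sprouting next to a tip cell and for setting arterial identity.

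RNA was sequenced from cortical endothelial cells of adult mice, sorted as positive for CD31 and negative for CD41 and CD45, in 12 libraries that form 4 groups of 3. The groups were wild type (WT), Hdac2 ECKO (Hdac2lox/lox:Cdh5CreERT2), Ezh2 ECKO (Ezh2lox/lox:Cdh5CreERT2) and beta-catenin GOF (Ctnnb1lox/lox:Cdh5CreERT2), where ECKO is a deletion in endothelial cells of the histone deacetylase gene Hdac2 or the Polycomb methyltransferase gene Ezh2, and GOF is a constitutive activation of beta-catenin. Cdh5CreERT2 is a Cre recombinase that tamoxifen switches on in endothelium, and the lox mice were given tamoxifen in 5 doses of 75 mg/kg, 2 months before the brains were taken. Whether WT mice carried the Cre or received tamoxifen, and the exact age of the animals, are not given in the sources used here.

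The libraries held 24781070 to 36109975 counts. Endothelial markers such as Pecam1, Cdh5, Cldn5 and Flt1 were present in every library, with 10 markers summing to 4035 to 6174 CPM, the usual unit of counts scaled to a common library total, here by the TMM method. The gated-out leukocyte and platelet list summed to 5.74 to 38.2 CPM. The mean of Hdac2 was 129 CPM for WT and 96.5 CPM for Hdac2 ECKO, a difference of −0.42 on the log2 scale that did not pass (edgeR adjusted p 0.22). Hdac2 was as low in beta-catenin GOF, where it was not targeted, at 96.2 CPM (−0.43 against WT, edgeR adjusted p 0.88). The Hdac2 level therefore does not set the Hdac2 ECKO libraries apart from beta-catenin GOF. Ezh2 was not lower in the labelled Ezh2 ECKO libraries, at 8.92 CPM against 6.75 CPM in WT, so every direction given for them is that of the libraries under this label. Ctnnb1 averaged 654 CPM for WT and 583 CPM for beta-catenin GOF. Its mean was higher in the mutants where it was not targeted, but no difference passed. For Hdac2 ECKO it was 1157 CPM, with every library above WT (0.82 against WT, edgeR adjusted p 0.071). The labelled Ezh2 ECKO libraries averaged 1102 CPM and overlapped WT (0.75, edgeR adjusted p 0.13). All beta-catenin GOF libraries lay below all of Hdac2 ECKO (−0.99, edgeR adjusted p 0.17) and labelled Ezh2 ECKO (−0.92, edgeR adjusted p 0.28). A gene-level count does not show whether a lox exon was removed. The library labelled Ezh2 ECKO 2 stood apart from the other 2 of its label and had the lowest sample quality weight of all, 0.262. In bulk RNA, fewer cells of a type and less RNA per cell cannot be told apart. The labels do not say that libraries of a group came from separate mice, so p-values measure only the spread between these libraries.

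The promoters of the members that stood highest against WT are shown first, with that of Hey2, where the core letters of the RBPJ motif were found. The stretches lie in the 250 bases before the RefSeq start site, on GRCm38.p6 with sequence from RefSeq, 5′ to 3′ on the strand of the gene, and capitals mark the motif. The Notch1 stretch lies inside the gene as the deposited table bounds it, since the table's gene starts further upstream, at 26516663, and the stretch holds 0 bases of its annotated exons. Jag1 is chr2:137116645-137116770 on the minus strand, Notch1 is chr2:26503825-26504024 on the minus strand, Notch4 is chr17:34564068-34564267 on the plus strand, and Hey2 is chr10:30842802-30843001 on the minus strand.
Jag1: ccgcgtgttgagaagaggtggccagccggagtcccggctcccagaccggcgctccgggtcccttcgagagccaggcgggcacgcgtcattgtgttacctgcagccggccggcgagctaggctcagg
Notch1: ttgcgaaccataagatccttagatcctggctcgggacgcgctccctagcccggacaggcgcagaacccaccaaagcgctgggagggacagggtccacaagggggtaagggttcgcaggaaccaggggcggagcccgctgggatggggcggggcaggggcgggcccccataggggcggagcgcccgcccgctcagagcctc
Notch4: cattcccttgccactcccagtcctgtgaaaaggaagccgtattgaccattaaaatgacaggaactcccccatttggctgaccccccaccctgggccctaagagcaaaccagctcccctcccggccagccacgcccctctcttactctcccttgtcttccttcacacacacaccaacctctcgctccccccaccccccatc
Hey2: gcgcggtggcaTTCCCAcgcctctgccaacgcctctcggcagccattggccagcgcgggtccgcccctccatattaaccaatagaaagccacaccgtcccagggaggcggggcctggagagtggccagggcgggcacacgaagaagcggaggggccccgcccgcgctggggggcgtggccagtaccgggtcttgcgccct

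The motif searched was TGGGAA on both strands, which reads TTCCCA in reverse, in the 250 bases before each RefSeq start site. It was present in 21.6% of 32851 promoters of that length. Of the 10 members 8 were matched in the promoter table, with 9 promoters, and 3 of these promoters, belonging to 2 members, Rbpj and Hey2, held it. The 2 Rbpj windows, with start sites at 53590346 and 53590486, overlap, and the 1 match of the second window is also a match of the first. The Hey2 match lay 201 bases before the start site. A match of 6 letters is a description of the sequence and not a binding site, and its absence from the windows of Jag1, Notch1 and Notch4 says only that these letters are not there. Hes1 and Hey1 are named without a sequence.

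By level per length, the pathway in these cells was led by the targets Hes1 and Hey1, while the targets Nrarp and Hey2 ranked 8 and 10 among the members. Levels were compared as CPM per kilobase of gene length, since counts grow with length. Hes1 (chromosome 16, 30064384 to 30067796, plus strand), a repressor gene that many signals besides Notch induce, averaged 548 CPM per kilobase over the 12 libraries and lay above 99.0% of the genes tested. Hey1 (chromosome 3, 8663359 to 8667256, minus strand) followed at 21.9 CPM per kilobase. In each of the 4 groups every Hes1 value lay above every Hey1 value, and every Hey1 value lay above every value of the member ranked next.

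The ligands and receptors formed the middle of the order. Jag1 averaged 9.95, Dll4 7.72, Jag2 7.18, Notch1 5.18 and Notch4 4.05 CPM per kilobase. Nrarp averaged 3.08, Rbpj 2.63 and Hey2 0.68 CPM per kilobase. In WT no neighbours from Jag1 down to Rbpj could be separated, because the values of each pair of neighbours overlapped, and only Hey2 lay clear below Rbpj. In the labelled Ezh2 ECKO libraries, Jag1 lay clear above Dll4 and Notch4 clear above Rbpj. In beta-catenin GOF, Jag2 ranked above Dll4 and Jag1, and Jag1 lay clear above Notch1.

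**Figure D1:**
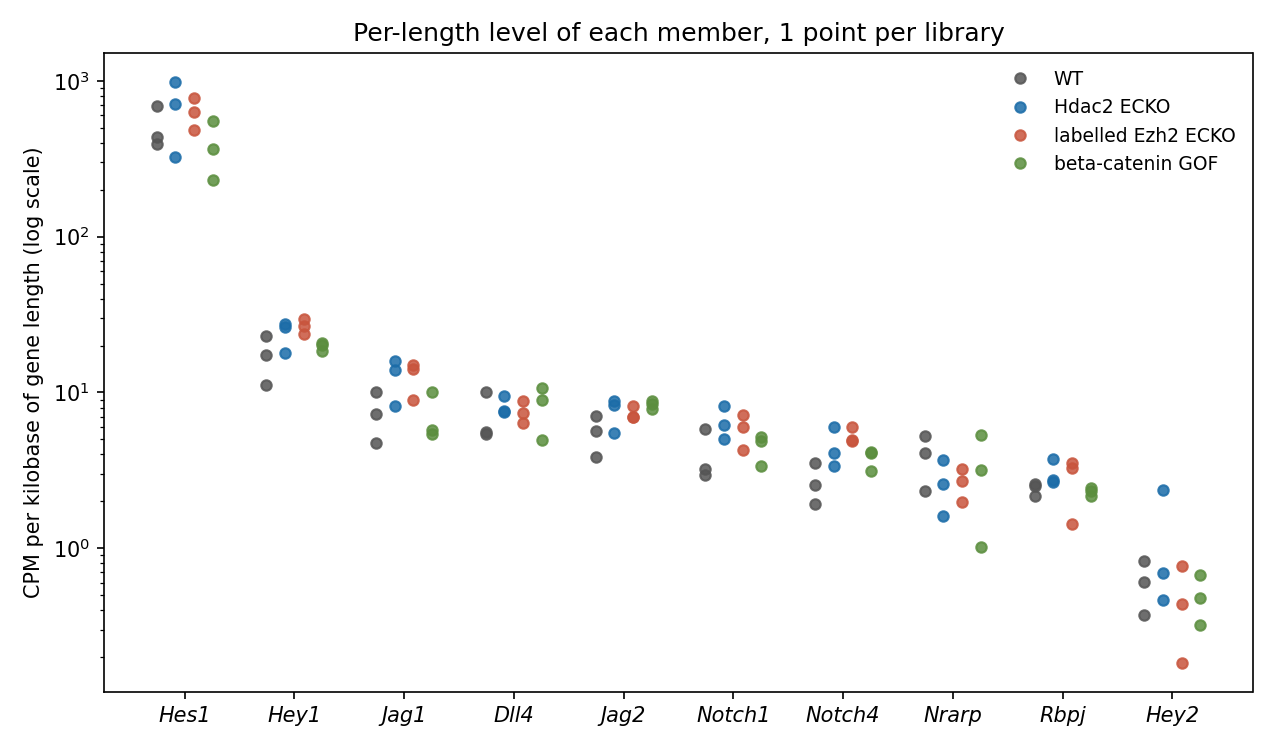
Level of each of the 10 members in every library, as CPM per kilobase of gene length on a log scale, with members ordered by their mean over the 12 libraries and 1 point per library coloured by group. Hes1 (mean 548) and Hey1 (mean 21.9) stand clear of the rest in every group, Jag1 to Rbpj lie between means of 9.95 and 2.63 with overlap, and Hey2 is lowest at 0.68.

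No member passed the test in any of the 6 pairwise contrasts between groups. Under edgeR's quasi-likelihood test with Benjamini-Hochberg adjustment over all genes, 9.2% of the genes tested passed in Hdac2 ECKO against WT and 1.03% in the labelled Ezh2 ECKO libraries against WT, with 0 of 10 members in each. In beta-catenin GOF against WT the test called 0% of genes. Between mutants it called 0.0239% of genes for Hdac2 ECKO against the labelled Ezh2 ECKO libraries, 0.0716% for beta-catenin GOF against Hdac2 ECKO and 0.0636% for beta-catenin GOF against the labelled Ezh2 ECKO libraries. A test of any difference among the 4 groups called 0.731% of genes and 0 members, where the lowest edgeR adjusted p among them was 0.14, for Notch4.

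At an unadjusted p under 0.05, 3 members stood out in Hdac2 ECKO against WT (Jag1, Notch1 and Notch4, all higher), where 33.1% of all genes did. The same threshold held 3 members in the labelled Ezh2 ECKO libraries (Jag1, Notch4 and Hey1, all higher; 24.7% of genes) and 1 in beta-catenin GOF (Jag2, higher; 6.07% of genes). Each count was close to the background share or, with 1 of 10, differed from it by a single gene. Between mutants it held no member for Hdac2 ECKO against the labelled Ezh2 ECKO libraries (8.19% of genes), and Jag1 alone for beta-catenin GOF against Hdac2 ECKO (21.1%) and against the labelled Ezh2 ECKO libraries (13.2%).

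Complete separation from WT was seen for few members. In Hdac2 ECKO every library lay above every WT library for 1 member, Rbpj, where 19.5% of genes did so, and below for 0, against 18.2% of genes. In the labelled Ezh2 ECKO libraries this held upward for Notch4 and Hey1 (11.1% of genes) and downward for 0 members (10.9%). In beta-catenin GOF it held upward for Jag2 (6.83%) and downward for 0 (5.87%).

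**Figure D2:**
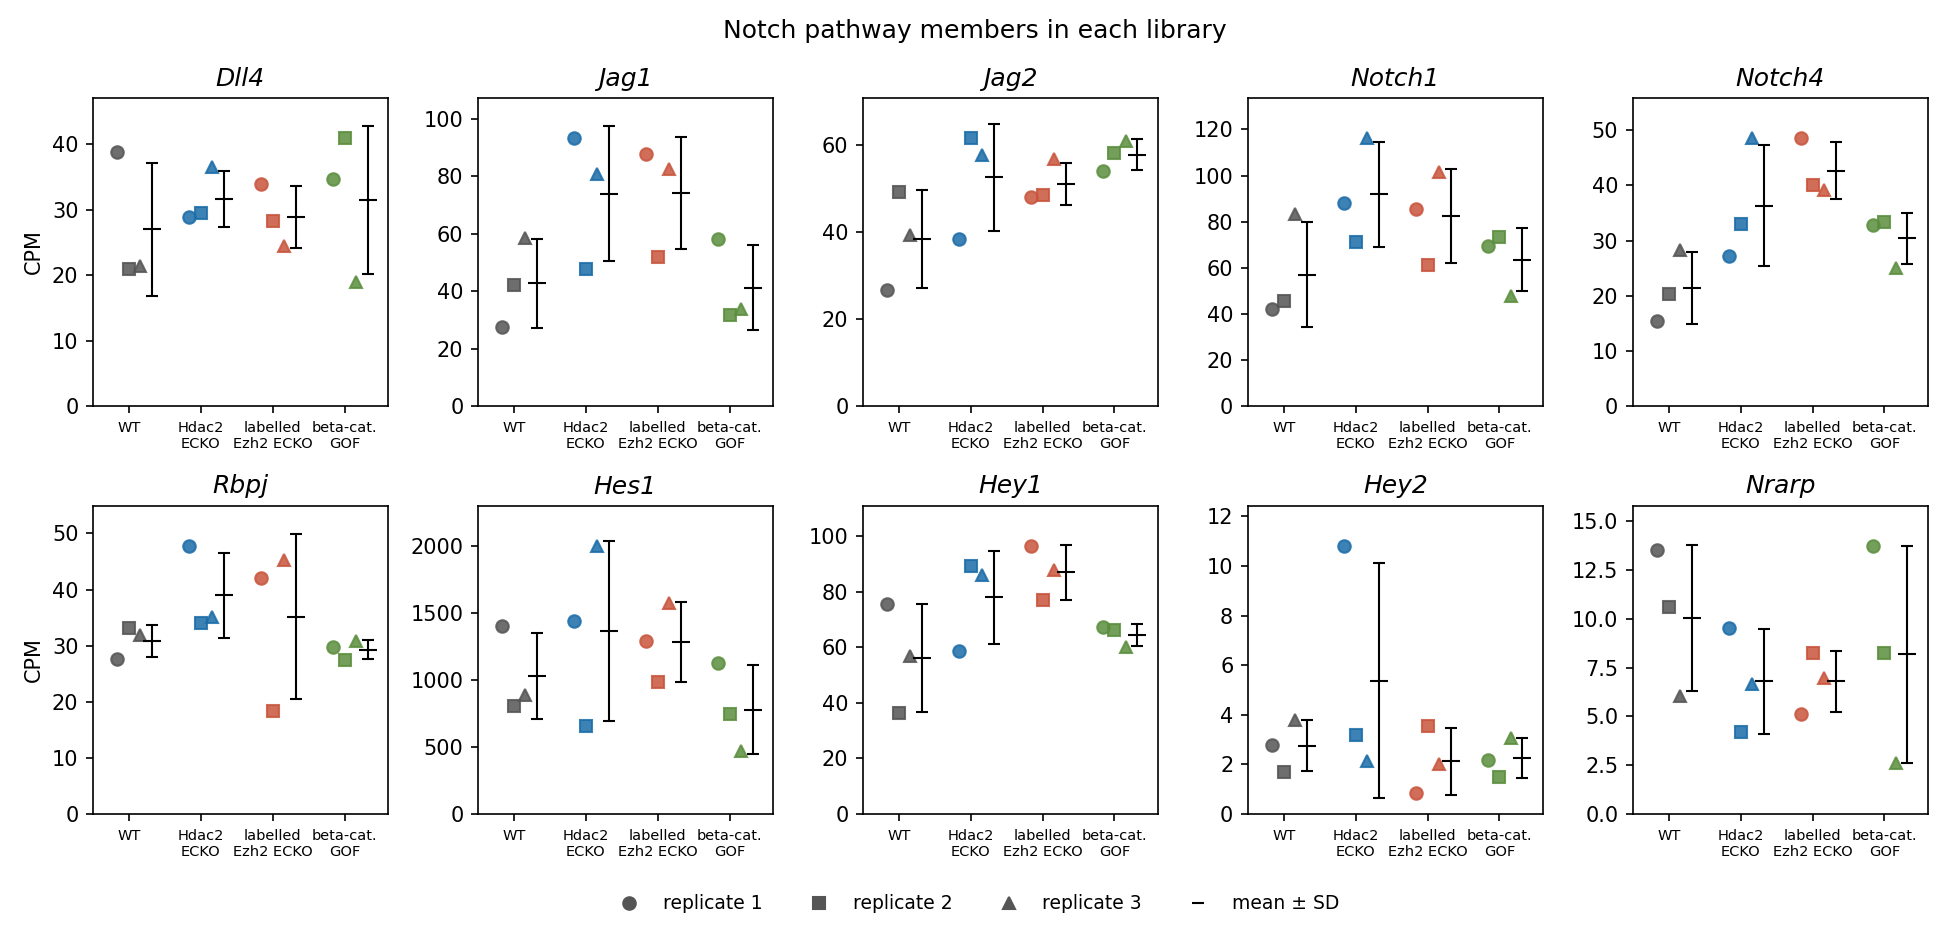
CPM of each member in every library, in 10 panels with an axis from 0, where shapes mark replicate numbers and bars give the mean ± SD of 3 libraries. The Notch4 values labelled Ezh2 ECKO (39.2 to 48.6) and the Jag2 values of beta-catenin GOF (54.1 to 61.0) lie above all WT values, while most other panels overlap.

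Among the ligands, Jag1 (chromosome 2, 137081456 to 137116644, minus strand) showed the widest differences between groups. Its protein is a Jagged ligand that in sprouting endothelium is known to compete with DLL4 for Notch receptors. It stood at 27.6, 42.2 and 58.4 CPM in WT replicates 1 to 3, at 93.3, 47.8 and 80.6 in Hdac2 ECKO, at 87.8, 51.8 and 82.7 in the labelled Ezh2 ECKO libraries, and at 58.3, 31.7 and 33.6 in beta-catenin GOF. Replicates 1 and 3 of Hdac2 ECKO and of the labelled Ezh2 ECKO libraries were above all WT and beta-catenin GOF libraries, and replicate 2 of each fell within the WT range. The log2 fold change against WT was 0.79 in Hdac2 ECKO (SE 0.35, edgeR adjusted p 0.13) and 0.79 in the labelled Ezh2 ECKO libraries (SE 0.35, edgeR adjusted p 0.18). Both contrasts share the WT libraries. Set directly against each other, the labelled Ezh2 ECKO and Hdac2 ECKO groups differed in Jag1 by −0.0037 on the log2 scale with a 95% interval from −0.74 to 0.73, Hdac2 ECKO minus Ezh2 ECKO.

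In beta-catenin GOF the Jag1 level was that of WT, 41.2 ± 14.8 CPM against 42.7 ± 15.4 CPM (SD, n = 3 each). Against Hdac2 ECKO it differed by −0.84 (SE 0.35, edgeR adjusted p 0.20) and against the labelled Ezh2 ECKO libraries by −0.85 (SE 0.35, edgeR adjusted p 0.34), neither of which passed.

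Dll4 (chromosome 2, 119325784 to 119335962, plus strand), the ligand gene that tip and arterial cells express most, varied little between groups. It stood at 38.8, 20.9 and 21.4 CPM in WT, at 28.9, 29.5 and 36.5 in Hdac2 ECKO, at 33.9, 28.3 and 24.4 in the labelled Ezh2 ECKO libraries, and at 34.6, 40.9 and 18.9 in beta-catenin GOF. The range within WT spanned nearly all other values. Its log2 fold changes against WT were 0.23, 0.10 and 0.22 (SE 0.32 each) in Hdac2 ECKO, the labelled Ezh2 ECKO libraries and beta-catenin GOF, with 95% intervals that reached from −0.59 to 0.91. A change of the size seen for Notch4 in the labelled Ezh2 ECKO libraries lies outside all of these intervals for Dll4. Dll4 exons overlap the opposite-strand transcript Gm14207 over 214 bases, and without strand in the counting, reads of the 2 genes cannot be told apart.

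Jag2 (chromosome 12, 112907819 to 112929776, minus strand), the other Jagged ligand gene, was the 1 member with an unadjusted p under 0.05 in beta-catenin GOF. It stood at 26.7, 49.3 and 39.3 CPM in WT, at 38.5, 61.6 and 57.6 in Hdac2 ECKO, at 48.1, 48.5 and 56.8 in the labelled Ezh2 ECKO libraries, and at 54.1, 58.3 and 61.0 in beta-catenin GOF. All beta-catenin GOF libraries lay above all WT libraries, and the lowest WT library lay below every other library. The difference of beta-catenin GOF from WT was 0.59 on the log2 scale (SE 0.27, edgeR adjusted p 0.81), against 0.45 in Hdac2 ECKO and 0.41 in the labelled Ezh2 ECKO libraries (SE 0.27 each). Between beta-catenin GOF and Hdac2 ECKO the difference in Jag2 was 0.14, with a 95% interval from −0.43 to 0.70, so the values do not place Jag2 higher in one mutant than in another.

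Neither receptor gene passed the test. Notch4 (chromosome 17, 34564268 to 34588503, plus strand), a receptor gene expressed mainly in endothelium, had the lowest p of all members. It stood at 15.4, 20.4 and 28.3 CPM in WT, at 27.3, 33.1 and 48.5 in Hdac2 ECKO, at 48.6, 40.1 and 39.2 in the labelled Ezh2 ECKO libraries, and at 32.7, 33.4 and 25.1 in beta-catenin GOF. All 3 labelled Ezh2 ECKO libraries were above all WT and all beta-catenin GOF libraries, and Hdac2 ECKO overlapped WT by 1 library. Beta-catenin GOF differed from the labelled Ezh2 ECKO libraries in Notch4 by −0.49 (SE 0.29, edgeR adjusted p 0.47). The share of all genes separated between these groups was not counted. The mean was 2.00-fold that of WT in the labelled Ezh2 ECKO libraries (95% interval 1.30 to 3.07, log2 fold change 1.00, SE 0.29, edgeR adjusted p 0.078). In Hdac2 ECKO the log2 fold change was 0.76 (SE 0.29, edgeR adjusted p 0.090) and in beta-catenin GOF 0.51 (SE 0.29, edgeR adjusted p 0.89). The Notch4 calls depended on the setting. It passed in the labelled Ezh2 ECKO libraries with no filter on low counts (edgeR adjusted p 0.039), with DESeq2 (adjusted p 0.021), without the library labelled Ezh2 ECKO 2 (edgeR adjusted p 0.034) and without WT replicate 3 (edgeR adjusted p 0.029). In Hdac2 ECKO it passed under scaling by total counts alone (1.03, edgeR adjusted p 0.039), a scaling that also moved the all-gene median difference from 0.10 to 0.34. Over all alternatives the adjusted p of Notch4 ran from 0.0065 to 0.28 in the labelled Ezh2 ECKO libraries and from 0.0027 to 0.44 in Hdac2 ECKO (edgeR, limma or DESeq2).

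Notch1 (chromosome 2, 26457903 to 26516663, minus strand), the receptor gene that endothelium needs for arterial identity, stood at 42.1, 45.7 and 83.4 CPM in WT. It stood at 88.3, 71.1 and 116 CPM in Hdac2 ECKO, at 85.4, 61.0 and 101 in the labelled Ezh2 ECKO libraries, and at 69.4, 73.3 and 47.8 in beta-catenin GOF. WT replicate 3 was high and sat among the mutant libraries, while the other 2 WT libraries lay below all 9 mutant libraries. The log2 fold change was 0.69 in Hdac2 ECKO (SE 0.31, edgeR adjusted p 0.14), 0.53 in the labelled Ezh2 ECKO libraries (SE 0.31, edgeR adjusted p 0.30) and 0.15 in beta-catenin GOF (SE 0.31, edgeR adjusted p 0.97). Without WT replicate 3 the Hdac2 ECKO value was 1.06 and passed (edgeR adjusted p 0.040), and Notch4 passed there too, at 1.02 (edgeR adjusted p 0.045). Over all alternatives the adjusted p of Notch1 in Hdac2 ECKO ran from 0.0014 with quality weights to 0.98 with the length trend removed (limma and edgeR). Notch1 exons overlap 2 opposite-strand transcripts, 0610009E02Rik over 1068 bases and Gm13568 over 414 bases. The 10 markers of arterial endothelium summed to 788, 874 and 1637 CPM in WT replicates 1 to 3. They summed to 1002 to 1314 CPM in Hdac2 ECKO, 475 to 881 in the labelled Ezh2 ECKO libraries and 489 to 1363 in beta-catenin GOF. Gkn3 alone ran from 140 to 1180 CPM. Their part in the Notch1 values was not tested.

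Notch1 has the longest gene model of the 10 members, 14232 bases, above 96.7% of the genes tested. Across genes, log2 fold changes moved with gene length, with a Spearman correlation of 0.44 in Hdac2 ECKO, 0.29 in the labelled Ezh2 ECKO libraries and 0.14 in beta-catenin GOF (12577 genes, all from the same libraries). With that trend removed from each library, the Notch1 difference was −0.01 in Hdac2 ECKO and 0.08 in the labelled Ezh2 ECKO libraries. Notch4, at 8061 bases, then stood at 0.35 and 0.76.

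Rbpj (chromosome 5, 53466152 to 53657362, plus strand) encodes the DNA-binding protein through which all Notch receptors act. It stood at 27.6, 33.1 and 31.8 CPM in WT, at 47.7, 34.1 and 35.1 in Hdac2 ECKO, at 42.0, 18.3 and 45.2 in the labelled Ezh2 ECKO libraries, and at 29.7, 27.4 and 30.8 in beta-catenin GOF. The Hdac2 ECKO libraries all lay above WT, but 2 of them by a small margin, and the labelled Ezh2 ECKO libraries held both the lowest value of all 12 and the second highest. The log2 fold changes were 0.34, 0.19 and −0.07 (SE 0.31 each), and none passed (edgeR adjusted p 0.46, 0.73 and 0.99). At 12750 bases Rbpj is also long, and with the length trend removed its differences were −0.35 and −0.31 in Hdac2 ECKO and the labelled Ezh2 ECKO libraries. Rbpj has the pseudogene copies Rbpj-ps1 and Rbpj-ps3, and reads split between such copies would make its count uncertain.

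**Figure D3:**
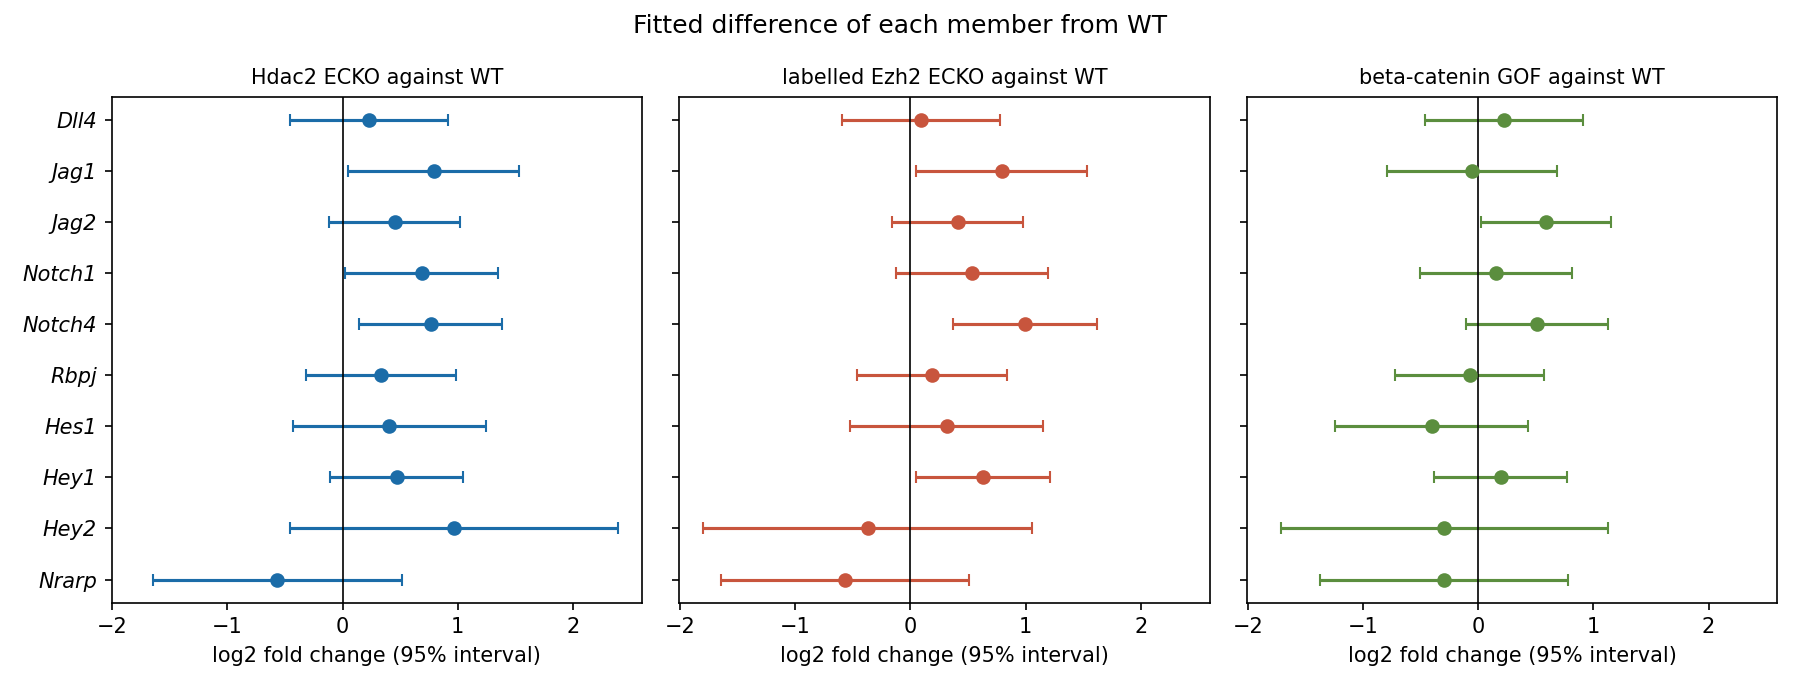
Fitted log2 fold change of each member against WT, with its 95% interval, in 3 panels for Hdac2 ECKO, the labelled Ezh2 ECKO libraries and beta-catenin GOF. Notch4 in the labelled Ezh2 ECKO libraries is highest at 1.00, Dll4 lies near 0 in all panels (0.10 to 0.23), and Hey2 and Nrarp, the members with the lowest CPM, have the widest intervals.

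Among the targets, Hey1, a repressor gene used in arterial and mural development, gave the clearest separation. It stood at 75.5, 36.5 and 56.8 CPM in WT, at 58.7, 89.3 and 86.0 in Hdac2 ECKO, at 96.5, 76.9 and 87.7 in the labelled Ezh2 ECKO libraries, and at 67.3, 66.3 and 60.0 in beta-catenin GOF. The labelled Ezh2 ECKO libraries lay above all WT and all beta-catenin GOF libraries, the nearest WT library being only just below. Beta-catenin GOF differed from them in Hey1 by −0.43 (SE 0.27, edgeR adjusted p 0.49), and the share of all genes separated in this way was not counted. The log2 fold change was 0.63 in the labelled Ezh2 ECKO libraries (SE 0.27, edgeR adjusted p 0.17), 0.47 in Hdac2 ECKO (SE 0.27, edgeR adjusted p 0.23) and 0.20 in beta-catenin GOF (SE 0.27, edgeR adjusted p 0.95). Hey1 is short, at 3265 bases, and removing the length trend moved these differences up, to 0.89 in the labelled Ezh2 ECKO libraries (edgeR adjusted p 0.070) and 0.73 in Hdac2 ECKO.

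Hes1 was the most abundant member and one of the most variable. It stood at 1404, 807 and 888 CPM in WT, at 1445.5, 661 and 2002 in Hdac2 ECKO, at 1292, 983 and 1579.9 in the labelled Ezh2 ECKO libraries, and at 1126, 747 and 468 in beta-catenin GOF. Hdac2 ECKO held the highest value of the 12 libraries and the second lowest, and all groups overlapped. The log2 fold change was 0.41 in Hdac2 ECKO, 0.32 in the labelled Ezh2 ECKO libraries and −0.40 in beta-catenin GOF (SE 0.39 each), with edgeR adjusted p of 0.49, 0.65 and 0.94. Without Hdac2 ECKO replicate 3 the Hdac2 ECKO value was −0.00091. Between beta-catenin GOF and Hdac2 ECKO Hes1 differed by −0.81 (SE 0.40, edgeR adjusted p 0.25). Immediate early genes, which cell isolation is known to induce, were measured beside it: 8 such genes summed to 2979 to 9231 CPM in WT, 1439 to 4233 in Hdac2 ECKO, 3468 to 3966 in the labelled Ezh2 ECKO libraries and 2368 to 3349 in beta-catenin GOF, and none was at 0 in any library. Of these, 3 of 8 were called lower in Hdac2 ECKO, 1 of 8 in the labelled Ezh2 ECKO libraries and 0 in beta-catenin GOF. Of all 12577 genes tested, 677, 86 and 0 were called lower in the same order. The median log2 fold change of the 8 immediate early genes was −0.85, −0.51 and −1.01. The lowest sum was that of Hdac2 ECKO 2 (Hes1 at 661 CPM) and the highest that of WT 1 (Hes1 at 1404 CPM), while Hdac2 ECKO 3, with the highest Hes1 level, had a middling sum of 3227 CPM. Their part in the Hes1 values was not tested.

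Hey2 (chromosome 10, 30832359 to 30842801, minus strand), an arterial and smooth muscle repressor gene, was the least abundant member. It stood at 2.78, 1.71 and 3.77 CPM in WT, at 10.8, 3.20 and 2.15 in Hdac2 ECKO, at 0.84, 3.54 and 2.01 in the labelled Ezh2 ECKO libraries, and at 2.18, 1.48 and 3.08 in beta-catenin GOF. A single library, Hdac2 ECKO 1, lay far above the others, and the remaining 11 overlapped. The log2 fold change of 0.97 in Hdac2 ECKO (SE 0.67, edgeR adjusted p 0.33) was −0.05 without that library. In the other contrasts it was −0.37 and −0.29 (SE 0.67 each).

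Markers of pericytes and smooth muscle were measured beside Hey2. The 11 markers summed to 68.1 to 124 CPM in WT, 131 to 326 in Hdac2 ECKO with Hdac2 ECKO 1 highest, 58.0 to 76.5 in the labelled Ezh2 ECKO libraries and 122 to 389 in beta-catenin GOF. Of the 11, 4 were called higher in Hdac2 ECKO and 0 in the other mutants. Of all 12577 genes tested, 480 were called higher in Hdac2 ECKO, 43 in the labelled Ezh2 ECKO libraries and 0 in beta-catenin GOF. The median log2 fold change of the 11 was 1.40, 0.07 and 1.31 in the same order. Abcc9, Cspg4 and Des were at 0 in 1 library each, and all 11 were above 0 in each Hdac2 ECKO library. Their part in the Hey2 value was not tested. In beta-catenin GOF 1, where the sum was 389 CPM, the highest of all, Hey2 was at 2.18 CPM. In Hdac2 ECKO 3, where the sum was 241 CPM, Hey2 was at 2.15 CPM.

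Nrarp (chromosome 2, 25180758 to 25183339, plus strand), which encodes a feedback inhibitor of the Notch complex, had lower means than WT in all mutants, within wide spreads. It stood at 13.5, 10.6 and 6.05 CPM in WT, at 9.54, 4.18 and 6.66 in Hdac2 ECKO, at 5.12, 8.26 and 6.97 in the labelled Ezh2 ECKO libraries, and at 13.7, 8.23 and 2.61 in beta-catenin GOF. The groups overlapped, and beta-catenin GOF held both the highest and the lowest value of the 12. The log2 fold changes were −0.56, −0.57 and −0.30 (SE 0.51 each), and none passed (edgeR adjusted p 0.45, 0.51 and 0.96). With the length trend removed the Hdac2 ECKO value was −0.0046. Nrarp exons overlap the antisense transcript Gm38287 over 2051 bases, most of the gene, so the share of counts that come from Nrarp itself is uncertain unless the counting used strand.

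As a list, the members are described by their signs and medians, since none passed. In Hdac2 ECKO 9 of 10 log2 fold changes were above 0 with a median of 0.46, where the median of all genes tested was 0.10. In the labelled Ezh2 ECKO libraries it was 8 of 10 with a median of 0.36, against 0.05 for all genes, and in beta-catenin GOF 5 of 10 with a median of 0.05, against 0.01. The contrasts share the WT libraries, so they are not independent. With the length trend removed the medians were 0.35, 0.24 and −0.04, with 7, 7 and 4 of 10 above 0. Summed astrocyte markers were also higher outside WT: the 7 markers summed to 24.0 to 35.8 CPM in WT, 50.7 to 76.2 in Hdac2 ECKO, 44.2 to 79.9 in the labelled Ezh2 ECKO libraries and 37.0 to 54.3 in beta-catenin GOF, so every mutant library lay above every WT library. Most of the sum was Gja1, a gap junction gene, at 19.4 to 67.5 CPM, and the defining markers Aqp4, Gfap and Aldh1l1 were at 0 in 7, 4 and 7 of the 12 libraries. The share of all genes with every mutant library above every WT library was not counted. The 4 astrocyte markers tested had a median log2 fold change of 0.74, 0.57 and 0.06 in the 3 contrasts, and 0 of them were called in each. Their part in the members' values was not tested.

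Other tests of the same counts gave other numbers of calls. DESeq2 called 24.6%, 10.4% and 0.303% of genes with an adjusted p in the 3 contrasts against WT, in the order Hdac2 ECKO, labelled Ezh2 ECKO, beta-catenin GOF, and 0, 1 (Notch4) and 0 members. Weighting each library by its quality in limma called 42.7%, 29.8% and 0.207% of genes. Under these weights 5 members were called higher in Hdac2 ECKO (Jag1, Notch1, Notch4, Hes1 and Hey1) and 4 in the labelled Ezh2 ECKO libraries (Jag1, Notch1, Notch4 and Hey1), shares near those of all genes. The weighted log2 fold changes were 1.08 for Notch1 in Hdac2 ECKO (limma adjusted p 0.0014) and 1.12 for Notch4 in the labelled Ezh2 ECKO libraries (limma adjusted p 0.0065).

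**Figure D4:**
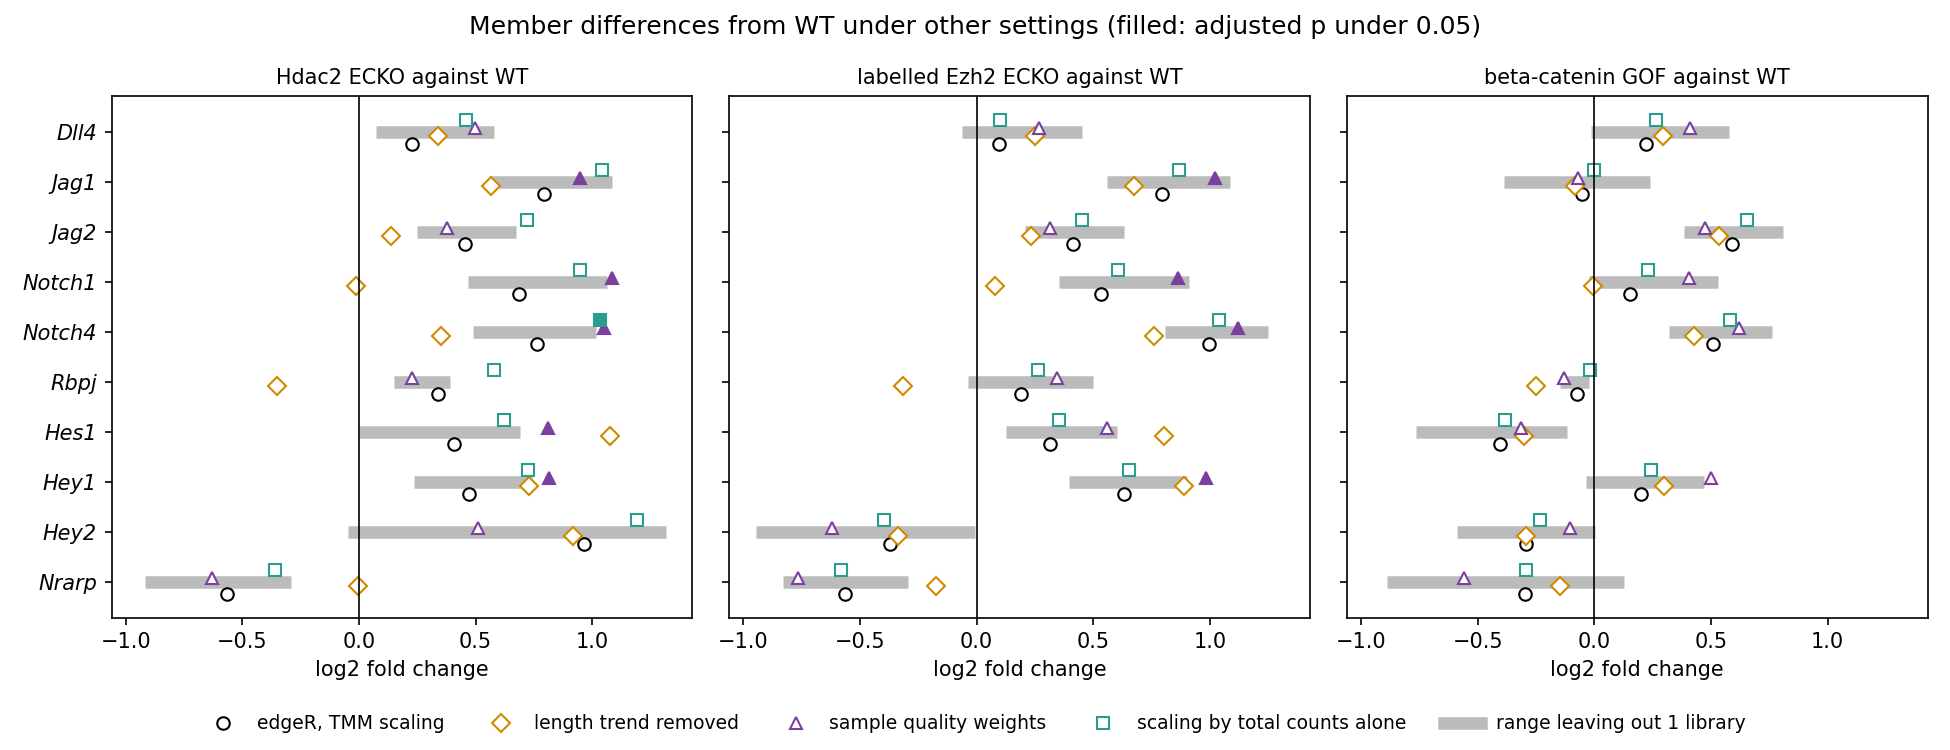
Log2 fold change of each member against WT under 4 settings, in 3 panels for Hdac2 ECKO, the labelled Ezh2 ECKO libraries and beta-catenin GOF, with filled symbols for an adjusted p under 0.05 and grey bars for the range when 1 library is left out. Notch1 and Rbpj shift toward or below 0 when the length trend is removed (Notch1 to −0.01 in Hdac2 ECKO), Hes1 and Hey1 shift up, and all filled symbols but 1 (Notch4 in Hdac2 ECKO under scaling by total counts alone) come from the quality weights.

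Over the 12 libraries the members did not move as 1 block. Pearson's r of log2 CPM had a median of 0.14 over the 45 pairs of members, with 2 pairs above 0.7 and 15 below 0. The highest values joined Jag1 with Notch1 (0.82) and Notch1 with Notch4 (0.79), and the lowest Jag2 with Nrarp (−0.52). These describe 12 libraries that share groups, depth and the length trend. Hes1 and Hey1, the abundant targets, were each outside the pairs above 0.7.

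The genes most like each member over the 12 libraries were taken among the 9836 genes that averaged at least 100 counts, by Pearson's r of log2 CPM. Picked as the highest of 9836 values over 12 libraries, these r values are high by selection. They describe these libraries only and were not tested. Jag1 was most like Herc3 (0.98), Calcrl (0.97), a peptide receptor gene, and Rtn4 (0.97), and Notch1 like Efnb2 (0.96), the arterial ephrin gene, Bcor (0.96) and Atp8a1 (0.95). Notch4 was most like Csnk2a1 (0.94), Tepp (0.94) and 2310009A05Rik (0.94), and Jag2 like Exoc4 (0.92), Unc5b (0.91), a guidance receptor gene of arterial endothelium, and Cldn12 (0.87). Rbpj was most like Frmd4a (0.95), Dis3 (0.95) and Slc22a5 (0.94). Hes1 was most like Tob1 (0.89), Polr2a (0.88) and Prdm1 (0.88), and Hey1 like Ttll7 (0.84), Sf3a1 (0.84) and Flcn (0.83). Hey2 came closest to Exosc2 (0.85), Mgat4a (0.83) and Zfp995 (0.81), Nrarp to Rnf10 (0.89), Phlda1 (0.85) and Ranbp3 (0.83), and Dll4 to Flvcr2 (0.83), Rsl1 (0.79) and Akirin2 (0.77).

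Around the members, 66 further genes of the pathway were listed, of which 58 were tested. In Hdac2 ECKO 2 of 58 rose and 3 fell, in the labelled Ezh2 ECKO libraries 0 rose and 2 fell, and in beta-catenin GOF 0 passed (6 had an unadjusted p under 0.05 under edgeR, and DESeq2 also called 0). The list's median log2 fold changes were 0.41, 0.28 and 0.15, with 40, 39 and 36 of 58 above 0, where the medians of all genes were 0.10, 0.05 and 0.01 with 54.0%, 52.6% and 51.1% above 0. With the length trend removed the list's medians were 0.11, 0.20 and 0.04, with 33, 33 and 34 above 0. Without WT replicate 1 they were 0.24, 0.18 and 0.04, without the library labelled Ezh2 ECKO 1 that of its contrast was 0.18, and without beta-catenin GOF replicate 1 that of its contrast was 0.03. Scaling by total counts alone gave 0.67 in Hdac2 ECKO, where it moved the median of all genes to 0.34. The 5 calls of 58 in Hdac2 ECKO stood beside 9.2% of all genes, and the 2 of 58 in the labelled Ezh2 ECKO libraries beside 1.03%.

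The genes that passed have separate roles: Hdac1 and Kdm5a are corepressor genes, Pofut1 and Rfng act on receptor sugars, Ncstn in receptor cleavage, and Egfl7 is secreted. Hdac1 (chromosome 4, 129516104 to 129542713), a histone deacetylase gene of corepressor complexes and the close relative of Hdac2, stood in WT at 115, 89.2 and 56.6 CPM, and in Hdac2 ECKO at 30.8, 38.5 and 27.5 CPM. All Hdac2 ECKO libraries were below all WT libraries, and the gene fell by 1.43 on the log2 scale (SE 0.29, edgeR adjusted p 0.032). In the labelled Ezh2 ECKO libraries Hdac1 fell by 1.31 (SE 0.29, edgeR adjusted p 0.048), at 35.6, 38.0 and 31.5 CPM, and in beta-catenin GOF its difference was −0.88 (SE 0.29, edgeR adjusted p 0.66). The Hdac1 call in Hdac2 ECKO held with the length trend removed (−1.21, edgeR adjusted p 0.031), and the one in the labelled Ezh2 ECKO libraries ended there (−1.09, edgeR adjusted p 0.051).

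Kdm5a (chromosome 6, 120364124 to 120444574), which encodes a histone demethylase that binds RBPJ, rose by 1.46 in Hdac2 ECKO (SE 0.32, edgeR adjusted p 0.032), from 35.1, 48.3 and 49.6 CPM in WT to 171, 69.8 and 124 CPM. Its gene model has 14158 bases, and with the length trend removed the difference was 0.69 and did not pass (edgeR adjusted p 0.079). Egfl7 (chromosome 2, 26580014 to 26593120), which encodes an endothelial secreted protein that binds Notch ligands and receptors, stood at 1122, 796 and 579.7 CPM in WT and fell by 1.38 in Hdac2 ECKO (SE 0.33, edgeR adjusted p 0.034), to 233, 417 and 310 CPM. No Hdac2 ECKO value of either gene overlapped WT. The Egfl7 call held with the length trend removed (−1.20, edgeR adjusted p 0.040).

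Pofut1 (chromosome 2, 153241533 to 153270247), the enzyme gene for the O-fucose that Notch receptors need, rose by 1.11 in Hdac2 ECKO (SE 0.29, edgeR adjusted p 0.039), from 5.60 to 12.1 CPM on average. Ncstn (chromosome 1, 172066013 to 172082795), a gamma-secretase subunit gene, fell by 1.36 (SE 0.39, edgeR adjusted p 0.043) from 36.5 to 14.2 CPM, although WT replicate 3, at 14.7 CPM, lay within the Hdac2 ECKO range. Both calls ended with the length trend removed, at 0.58 for Pofut1 (edgeR adjusted p 0.26) and −1.27 for Ncstn (edgeR adjusted p 0.057). Rfng (chromosome 11, 120780746 to 120784207), a Fringe glycosyltransferase gene, fell by 1.69 in the labelled Ezh2 ECKO libraries (SE 0.38, edgeR adjusted p 0.048), from 8.19, 8.74 and 6.77 CPM in WT to 1.88, 2.52 and 2.95 CPM. Beta-catenin GOF held 12.5, 11.5 and 6.27 CPM of Rfng, overlapping WT, and the Rfng call also ended with the length trend removed (−1.28, edgeR adjusted p 0.073). These calls lay near the threshold, and leaving out 1 library ended many of them while the directions held. The Hdac2 ECKO log2 fold changes then ran from −1.66 to −1.18 for Hdac1, 1.11 to 1.68 for Kdm5a, −1.67 to −1.10 for Egfl7, 0.97 to 1.26 for Pofut1 and −1.74 to −0.99 for Ncstn. Those of the labelled Ezh2 ECKO libraries ran from −1.54 to −1.06 for Hdac1 and −1.86 to −1.55 for Rfng. Leaving out WT replicate 1 or 2, or Hdac2 ECKO replicate 1 or 3, left 0 of the 5 calls in Hdac2 ECKO, and leaving out any 1 beta-catenin GOF library left 3 (Hdac1, Kdm5a and Egfl7). Leaving out WT replicate 1 or 2, labelled Ezh2 ECKO replicate 1 or 3, Hdac2 ECKO replicate 3 or any 1 beta-catenin GOF library left 0 of the 2 calls in the labelled Ezh2 ECKO libraries. Over all alternatives the highest adjusted p in Hdac2 ECKO was 0.16 for Hdac1, Kdm5a and Egfl7, 0.26 for Pofut1 and 0.18 for Ncstn, and in the labelled Ezh2 ECKO libraries 0.20 for Hdac1 and 0.18 for Rfng (edgeR in each case). The lowest in each of these 7 comparisons was at most 0.0021, from edgeR with no filter, DESeq2 or quality weights in limma.

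**Figure D5:**
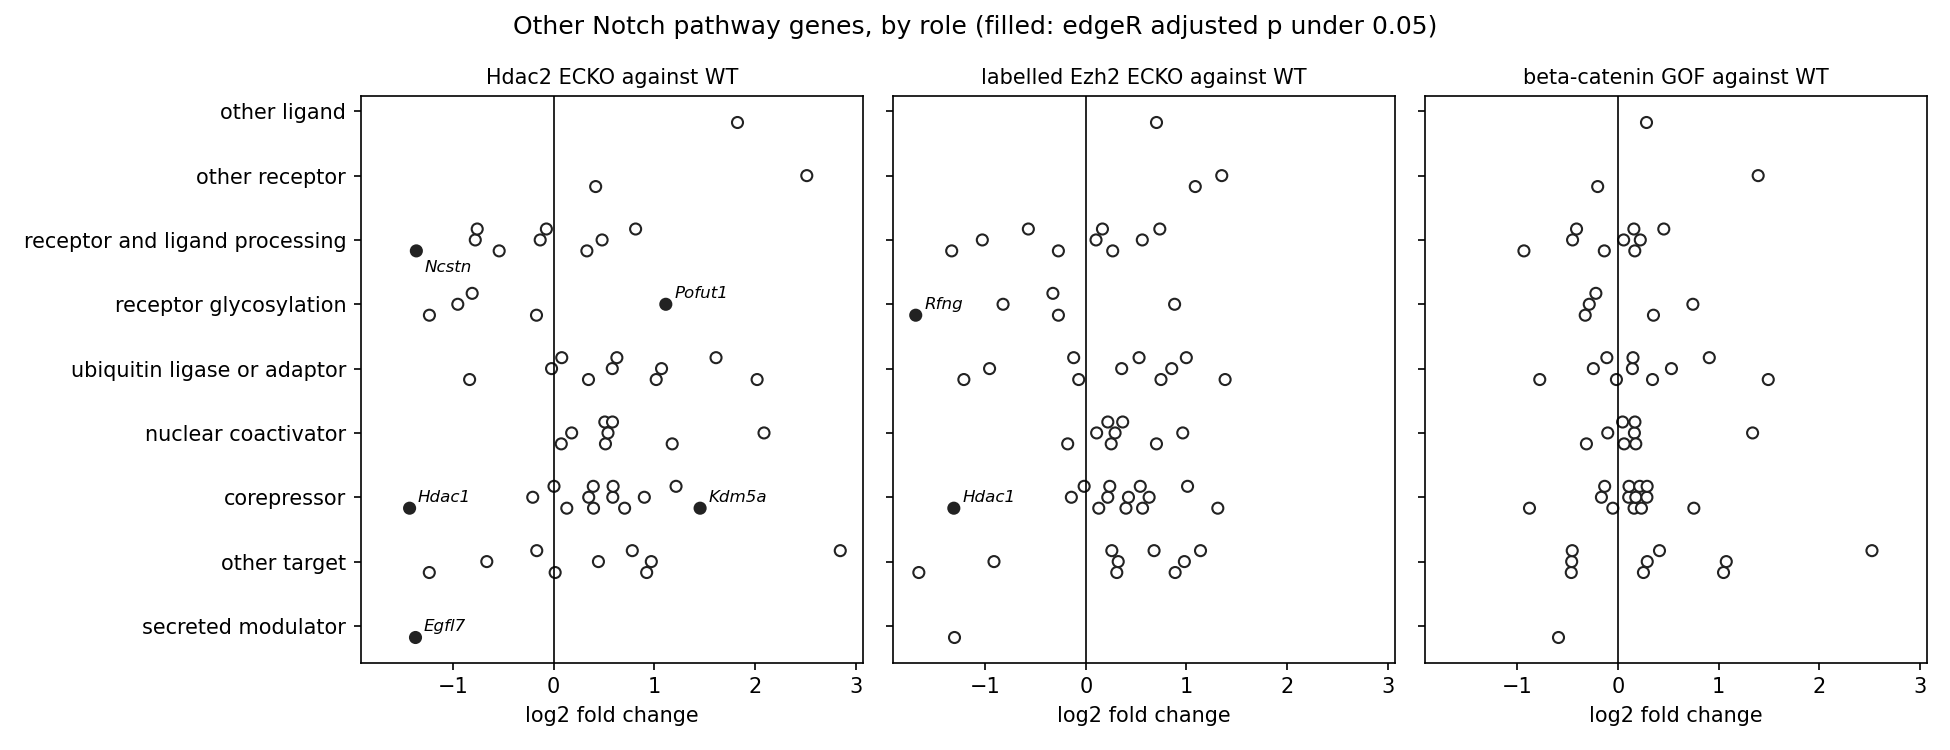
Log2 fold change against WT of the 58 tested genes of the further list, 1 point per gene, by role and in 3 panels for Hdac2 ECKO, the labelled Ezh2 ECKO libraries and beta-catenin GOF, with the called genes filled and named. In Hdac2 ECKO Kdm5a and Pofut1 lie right and Hdac1, Egfl7 and Ncstn left, and no point is filled for beta-catenin GOF.

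The receptors and ligands outside the 10 members were scarce in these libraries. Notch2 averaged 2.40 CPM in WT and 5.09 CPM in the labelled Ezh2 ECKO libraries (log2 fold change 1.09, SE 0.55, edgeR adjusted p 0.23). Dll1 averaged 1.69 CPM in WT against 5.98 CPM in Hdac2 ECKO, where every library lay above WT and the difference of 1.83 did not pass (SE 0.64, edgeR adjusted p 0.070). Notch3, which is the receptor gene of mural cells and one of the 11 pericyte and smooth muscle markers, stood at 0.73, 0.38 and 1.53 CPM in WT and at 9.70, 1.86 and 3.57 CPM in Hdac2 ECKO (SE 0.84 for a log2 fold change of 2.52, edgeR adjusted p 0.063). Its highest library was again Hdac2 ECKO 1, and the part of mural cell RNA in it was not tested. Heyl, a HEY-family target gene, had 10, 2 and 0 counts in the WT libraries and 18, 6 and 62 in Hdac2 ECKO, too few for a fold. Per length, the WT mean of Notch1, 4.01 CPM per kilobase, was above those of Notch2 (0.22) and Notch3 (0.11), and the highest WT value of either lay below the lowest of Notch1.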

How the data were processed

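Sorted brain endothelial RNA was amplified with the SMART-Seq v4 PLUS kit and paired-end reads came from a NovaSeq X plus, per the labels' protocols. The deposited values are whole-number counts of reads per gene. They were read as raw counts although their table is called normalized, because library totals differ and even values are in excess, as when mates are counted singly. The submitters' processing notes name FastQC, cutadapt, STAR, featureCounts, DESeq2 and mm10, with no versions. Which annotation was counted, whether by strand, and with what filter is not given in the sources used here. Gene positions are those of the table on GRCm38, counted from 1.

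edgeR 4.0.16 in R 4.3.3 fitted 1 quasi-likelihood model over 12 libraries with a term per group, TMM scaling and a mean count of at least 10. P-values were adjusted by Benjamini-Hochberg over all 12577 genes in each of 6 contrasts, with a threshold of 0.05. Levels are CPM of the TMM-scaled total. Per-length levels divide by the table's gene length. The plan named limma on log2 values had the table not held counts.

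The members and lists were chosen with earlier results of these data known. Genes named are all members, further pathway genes past the threshold, Notch2, Notch3, Dll1 and Heyl, the 3 genes most like each member, and the targeted genes. The lists of markers covered endothelium, leukocytes and platelets, pericytes and smooth muscle, astrocytes, neurons, microglia, oligodendrocytes, arterial and venous endothelium, and immediate early genes. Alternatives were median-ratio scaling, scaling by total counts alone, no filter, DESeq2 1.42.0, removal of a trend on gene length, limma 3.58.1 with sample quality weights, a replicate block, and leaving out each library. The scripts were tested on simulated data. The floor of 3 counts was 0.0831 to 0.121 CPM per library, and floors cover counting error only. No 2 replicates were repeats of 1 library, since their chi-square over its degrees of freedom was 62.6 or more.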

Additional observations from a re-analysis of the deposited data

How the results depend on the processing

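Of the values with no library left out, 368 single-gene values kept their direction and side of the threshold, 35 newly passed it, 11 no longer passed and 6 reversed. The reversed ones were as follows: with the length trend removed, Notch1 was at −0.013 in Hdac2 ECKO and −0.0060 in beta-catenin GOF, Rbpj at −0.35 in Hdac2 ECKO and −0.31 in the labelled Ezh2 ECKO libraries, and Notch2 at −0.15 in Hdac2 ECKO; with quality weights Notch2 was at 0.35 in beta-catenin GOF. The causes were not tested.

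Counts of called genes moved with the setting. In Hdac2 ECKO against WT, 1157 genes became 2553 with DESeq2, 604 with the length trend removed, 2279 with no filter, 5374 with quality weights and 1826 with total-count scaling. In the labelled Ezh2 ECKO libraries, 129 became 1280 with DESeq2, 76 with median-ratio scaling, 1367 with no filter, 3743 with quality weights and 30 with total-count scaling. In beta-catenin GOF, 0 became 38, 157 and 26 with DESeq2, no filter and quality weights. Between Hdac2 ECKO and the labelled Ezh2 ECKO libraries, 3 became 98, 199, 11 and, with total-count scaling, 2. For beta-catenin GOF against Hdac2 ECKO, 9 became 621, 978 and 3339 and, with the length trend removed and total-count scaling, 5 and 4. Against the labelled Ezh2 ECKO libraries, 8 became 144, 359 and 1466, and 14 with each of the last.

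Members called in Hdac2 ECKO moved from 0 to 5 with quality weights and 1 with total-count scaling, and in the labelled Ezh2 ECKO libraries from 0 to 1 with DESeq2, 1 with no filter and 4 with quality weights. Quality weights also gave 3 and 1 for beta-catenin GOF against Hdac2 ECKO and the labelled Ezh2 ECKO libraries. There the weights called 3339 and 1466 of all 12577 genes. For any difference among the groups the weights gave 5 members and no filter gave 1. The share of all genes with any difference was not counted under these settings. Against WT the weights called 42.7% of all genes in Hdac2 ECKO and 29.8% in the labelled Ezh2 ECKO libraries. The further pathway genes moved in Hdac2 ECKO from 5 to 16, 2, 9, 30 and 16 with DESeq2, length removal, no filter, weights and total-count scaling, and in the labelled Ezh2 ECKO libraries from 2 to 9, 0, 8 and 22, with 0 under total-count and median-ratio scaling. The counts of all genes called under the same settings are those above, with 103 in the labelled Ezh2 ECKO libraries after length removal.

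Deviations from the group mean had a mean r of 0.022 over 18 pairs of libraries with the same replicate number, 4 of them over 0.1. Over 36 pairs with different numbers the mean r was −0.011, with 5 over 0.1. The highest r, 0.27, joined Hdac2 ECKO 2 with the library labelled Ezh2 ECKO 2. Whether replicate numbers mark a shared handling was not tested. A fit with a replicate block called 1832 and 536 genes in Hdac2 ECKO and the labelled Ezh2 ECKO libraries, 13 in each contrast of beta-catenin GOF with another mutant, and 0 members, with 8 and 4 further pathway genes.

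Leaving out 1 library gave 0 (without WT replicate 1) to 2760 (without the library labelled Ezh2 ECKO 2) genes in Hdac2 ECKO, 2 to 2328 without those same libraries in the labelled Ezh2 ECKO libraries, 0 to 4 in beta-catenin GOF, 1 to 4 between Hdac2 ECKO and the labelled Ezh2 ECKO libraries, 0 to 642 for beta-catenin GOF against Hdac2 ECKO and 1 to 731 against the labelled Ezh2 ECKO libraries. Members called ranged from 0 to 2 in Hdac2 ECKO and 0 to 1 in the labelled Ezh2 ECKO libraries, and further pathway genes from 0 to 16 and 0 to 11. The 2 members came without WT replicate 3, a fit whose share of all genes called is not given here. The 16 and 11 came without the library labelled Ezh2 ECKO 2, where 2760 and 2328 of all genes were called. Against WT, directions reversed for Hes1 (−0.00091 to 0.69) and Hey2 (−0.046 to 1.32) in Hdac2 ECKO, and for Dll4 (−0.061 to 0.45) and Rbpj (−0.039 to 0.50) in the labelled Ezh2 ECKO libraries. In beta-catenin GOF they did for Dll4 (−0.013 to 0.58), Jag1 (−0.39 to 0.24), Notch1 (−0.023 to 0.53), Hey1 (−0.036 to 0.47), Hey2 (−0.59 to 0.0026), Nrarp (−0.89 to 0.13), Notch2 (−0.47 to 0.53) and Dll1 (−0.062 to 0.55). Depth limits Heyl, with 0 to 10 counts per WT library.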
